A study of Macaca fascicularis with 4 samples.

Results

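Caveolae are small flask-shaped pits of the plasma membrane, abundant in adipocytes, endothelial cells, fibroblasts, smooth muscle and striated muscle. Caveolins are membrane proteins that oligomerise into the caveolar core, cavins are peripheral coat proteins that assemble on it, and EHD2 is an ATPase that sits at the neck of the pit and holds it at the surface. In striated muscle, tissue-specific forms of both coat families, CAV3 and CAVIN4, are known to join the general ones.

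The genes described here are 3 caveolins (CAV1, CAV2 and CAV3), 3 cavins (CAVIN1, CAVIN2 and CAVIN4) and EHD2. They were taken by name from the gene counts of 4 tissues, as 7 of 13982 genes listed in at least 1 library. All 7 were listed in muscle and 5 in each of liver, oWAT and sWAT, where CAV3 and CAVIN4 had no counts. The 4 older symbols of the cavins were searched for and 0 were listed. How reads shared between the related caveolins were handled is not stated in the sources. CAV1 and CAV2 are chromosomal neighbours, with 0 protein-coding genes between them in the RefSeq table of the assembly T2T-MFA8v1.1.

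Full-length RNA sequencing (PacBio Sequel II) was run on liver, muscle, oWAT and sWAT of cynomolgus monkeys (Macaca fascicularis). Each tissue is 1 library of RNA pooled from 5 monkeys, with no age, sex, genotype, diet or treatment given in the labels. WAT usually stands for white adipose tissue; the prefixes o and s are not explained in the labels. The deposited tables of the samples labelled oWAT and sWAT are named eWAT and iWAT instead, and the labels are followed here. There are no replicates: intervals below cover counting error alone, no spread between animals can be given, and no p-value was computed.

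Libraries held 383896 to 439872 counts assigned to genes, and values are given as CPM, counts scaled to a library of 1000000. Markers of the labelled tissues were checked as sums. The 12 skeletal myofibre markers summed to 141293 CPM in muscle and at most 132.5 elsewhere, and 10 hepatocyte markers to 201903 CPM in liver and at most 805 elsewhere, although the hepatocyte marker HP (haptoglobin) was at 0 counts in all 4 libraries. The 12 adipocyte markers summed to 18949 CPM in oWAT and 20894 in sWAT, against 2844 in muscle and 903 in liver. Mesothelial markers (8 genes) reached 4042 CPM in oWAT and at most 22.9 in the other libraries, with CALB2 at 0 counts in oWAT and 2 in sWAT.

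**Figure D1:**
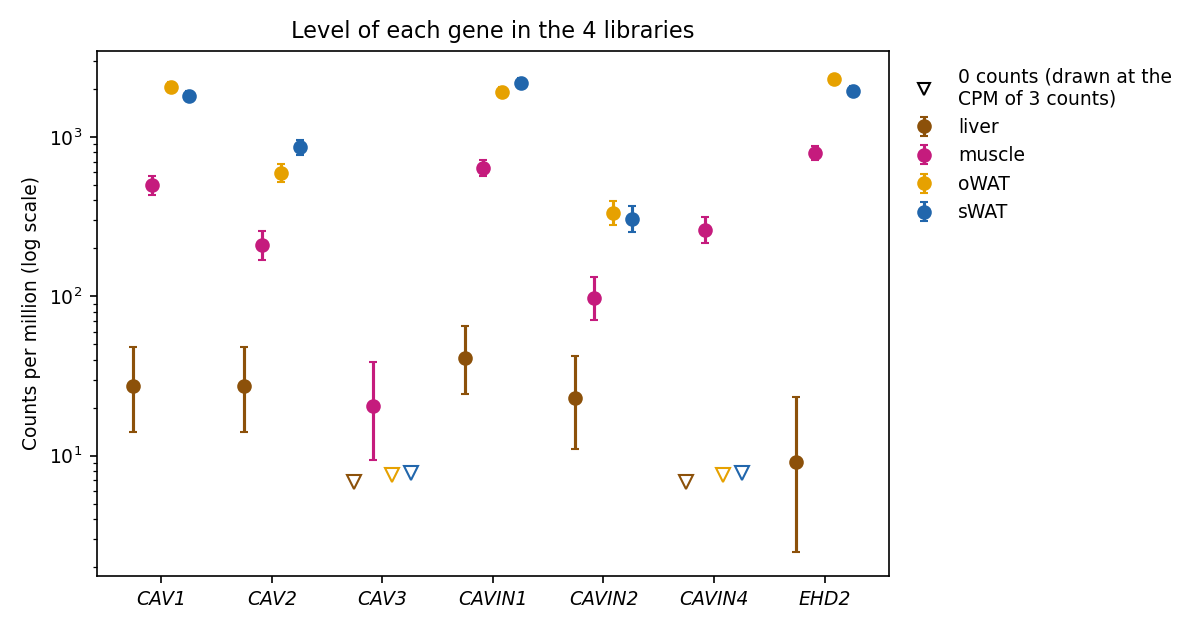
Level of each gene in liver, muscle, oWAT and sWAT, in CPM on a log scale, 1 library per tissue. Bars are exact 95% Poisson intervals of the count, and open triangles mark 0 counts, drawn at the CPM of 3 counts. CAV1, CAV2, CAVIN1, CAVIN2 and EHD2 are lowest in liver and highest in the WAT libraries, while CAV3 and CAVIN4 have counts in muscle alone.

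CAV1, the caveolin required for caveolae outside striated muscle, had 695 counts in sWAT, 818 in oWAT, 219 in muscle and 12 in liver. On the scaled level this was 1810.4 CPM in sWAT (1678 to 1950.1), 2062 in oWAT (1923 to 2208), 498 in muscle (434 to 568) and 27.4 in liver (exact 95% Poisson interval 14.2 to 47.9). The WAT libraries were high, liver was low, muscle lay between, and the 3 levels did not overlap in their counting intervals. The ratio of scaled counts was 75.2 for oWAT over liver (95% interval 42.8 to 146), 66.0 for sWAT over liver (37.6 to 128) and 18.2 for muscle over liver (10.2 to 35.7). In bulk tissue, fewer cells of a type and less RNA per cell cannot be told apart.

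CAV2, which forms hetero-oligomers with CAV1, followed the same order from liver to muscle to WAT but was highest in sWAT. It had 331 counts in sWAT (862 CPM), 237 in oWAT (597 CPM), 92 in muscle (209 CPM) and 12 in liver (27.4 CPM). It was 31.4 times as high in sWAT as in liver (17.8 to 61.5), 21.8 times in oWAT (12.2 to 42.8) and 7.63 times in muscle (4.16 to 15.3). The intervals of the levels in oWAT (524 to 678 CPM) and sWAT (772 to 960 CPM) did not overlap.

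CAV3, the caveolin of striated muscle, was at low counts even in its own tissue. It had 9 counts in muscle (20.5 CPM, 9.36 to 38.8) and 0 in liver, oWAT and sWAT, where the exact 95% Poisson interval reaches 8.43, 9.30 and 9.61 CPM. For ratios, 0 was set to a floor of 3 counts, which is 6.86 CPM in liver, 7.56 in oWAT and 7.81 in sWAT. Against that floor CAV3 was 2.98-fold higher in muscle than in liver, 2.71-fold than in oWAT and 2.62-fold than in sWAT. The exact lower bounds of these ratios were 1.96, 1.78 and 1.72. A gene was called higher where the higher library had at least 10 counts and the lower 95% bound of the ratio was above 2, so CAV3 was not called at this depth.

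CAVIN1, the cavin needed for caveola formation in all tissues, had 839 counts in sWAT, 763 in oWAT, 282 in muscle and 18 in liver. Its levels were 2185 CPM in sWAT (2040.1 to 2339), 1923 in oWAT (1789 to 2064), 641 in muscle (568 to 720.5) and 41.1 in liver (24.4 to 65.0). Again liver was low and the WAT libraries were high. The ratio was 53.1 for sWAT over liver (33.4 to 90.1), 46.7 for oWAT over liver (29.4 to 79.3) and 15.6 for muscle over liver (9.68 to 26.7).

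CAVIN2, a cavin linked to membrane curvature and abundant in some endothelia, had the smallest ratios over liver of the 5 genes with liver counts. The intervals of these ratios overlapped those of CAV2 in oWAT, sWAT and muscle, so that order was not settled by the counts. It had 118 counts in sWAT (307 CPM), 132 in oWAT (333 CPM), 43 in muscle (97.8 CPM) and 10 in liver (22.9 CPM). It was 14.6 times as high in oWAT as in liver (7.67 to 31.1), 13.5 times in sWAT (7.06 to 28.8) and 4.28 times in muscle (2.12 to 9.55). With TMM factors (a trimmed mean of gene ratios) in place of library totals, the muscle ratio was 3.15, and with DESeq2 size factors also 3.15, and it was no longer called under either.

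CAVIN4, the striated muscle cavin, had 115 counts in muscle (261 CPM, 216 to 314) and 0 in liver, oWAT and sWAT. Against the floor of 3 counts it was 38.1-fold higher in muscle than in liver, 34.6-fold than in oWAT and 33.5-fold than in sWAT. The exact lower bounds of these ratios were 30.5, 27.7 and 26.8. Together with CAV3 it had counts in muscle alone, as had nearly all counts of the myofibre markers.

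Of the 5 genes with liver counts, EHD2 showed the widest contrast with liver. It had 751 counts in sWAT (1956 CPM, 1819 to 2101), 916 in oWAT (2308 CPM, 2161 to 2463), 349 in muscle (793 CPM, 712 to 881) and 4 in liver (9.14 CPM, 2.49 to 23.4). The ratio was 253 for oWAT over liver (98.3 to 929), 214 for sWAT over liver (83.2 to 787) and 86.8 for muscle over liver (33.6 to 320.3). With 4 counts behind the denominator the intervals are wide, but their lower bounds exceeded the CAVIN2 ratios in all 3 libraries. They overlapped the CAV1 intervals in all 3. The ratio of EHD2 to CAV1 counts, over that of liver, was 4.77 in muscle (1.42 to 20.5) and 3.36 in oWAT (1.01 to 14.3). In sWAT it was 3.24 (0.976 to 13.8), so there the order of EHD2 and CAV1 was within counting error.

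By the calling rule, 6 of the 7 genes were higher in muscle than in liver, a share of 23.0% over the 5809 genes that had 10 or more counts in muscle; CAV3 was the exception. In oWAT over liver 5 of 7 were called (25.8% of 6563 genes) and in sWAT over liver 5 of 7 (24.2% of 5997 genes). CAV3 and CAVIN4 had no WAT counts and could not be called there. CAV1, CAV2, CAVIN1, CAVIN2 and EHD2 were each higher than liver in all 3 other libraries, a pattern of 11.8% of the 4616 genes with at least 10 counts in those 3. A gene admitted through a library where it is high is more likely to be called, so these counts describe the genes and are not evidence about the family. None of the 7 was higher in liver than in muscle, oWAT or sWAT, against 17.7%, 12.9% and 13.6% of genes with at least 10 liver counts, a filter that CAV1, CAV2, CAVIN1 and CAVIN2 passed.

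Among genes with at least 10 oWAT counts, the oWAT-over-liver ratio of EHD2 exceeded that of 99.6%, CAV1 that of 98.1%, CAVIN1 that of 96.7%, CAV2 that of 92.6% and CAVIN2 that of 90.7% (0.5 counts added). The median log2 ratio of oWAT over liver was 5.51 over the 5 genes with at least 10 counts in either library and 1.002 over the 7401 genes so filtered. For muscle over liver it was 4.03 over 6 genes (4.07 with the 0 of CAVIN4 set to 3 counts) and 0.56 over 6997. At library totals most genes so filtered thus had a lower level in liver, and the medians of the described genes were larger. EHD2 (4 liver counts) and CAVIN4 (0) passed the filter only through the library where they were high. The percentiles and medians therefore describe these genes and are not evidence about the family.

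**Figure D2:**
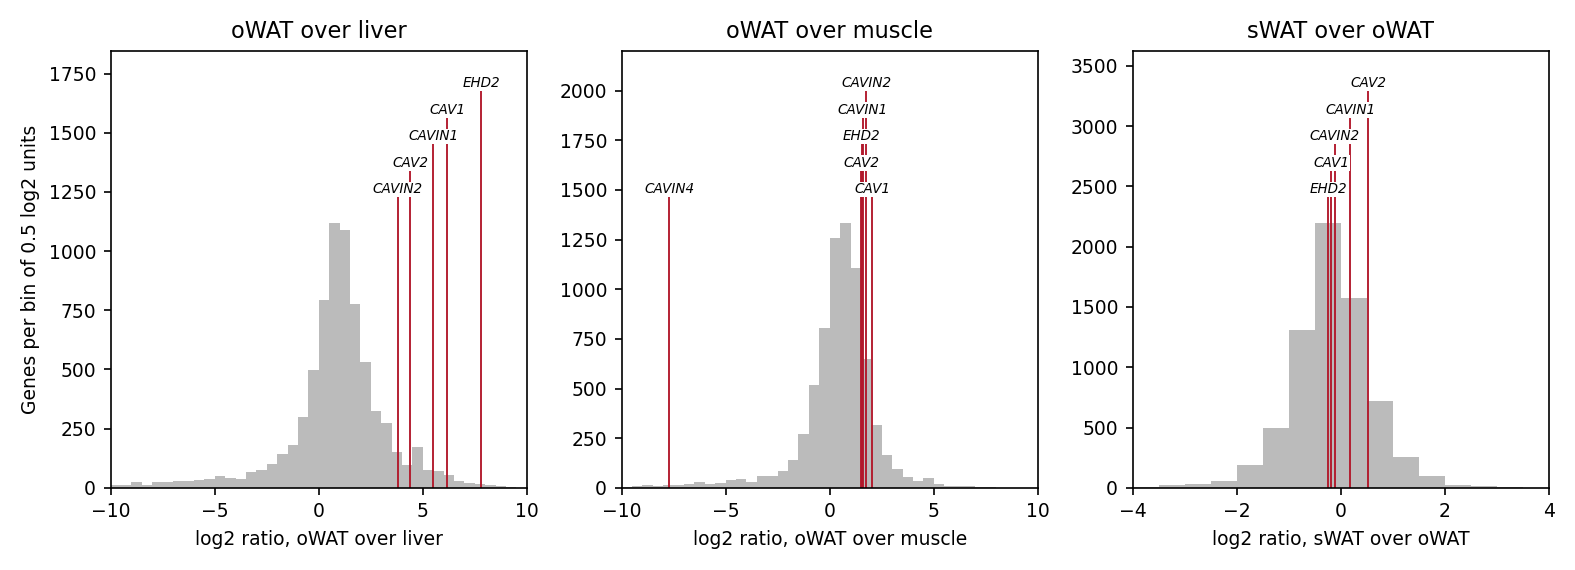
Distribution of log2 ratios (0.5 counts added) over all genes with at least 10 counts in either library, in bins of 0.5, for oWAT over liver, oWAT over muscle and sWAT over oWAT. Red lines mark the described genes that passed the same filter. They lie in the right tail over liver, right of the peak over muscle except CAVIN4, and around the peak between the WAT libraries.

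In the comparison of the WAT libraries with muscle, the same 5 genes stood higher in fat, by ratios from 2.47 to 4.14. For oWAT over muscle the ratio was 4.14 for CAV1 (3.56 to 4.83), 3.40 for CAVIN2 (2.40 to 4.92), 2.999 for CAVIN1 (2.61 to 3.45), 2.91 for EHD2 (2.57 to 3.301) and 2.86 for CAV2 (2.236 to 3.67). For sWAT over muscle it was 4.12 for CAV2 (3.26 to 5.25), 3.64 for CAV1 (3.12 to 4.25), 3.41 for CAVIN1 (2.98 to 3.92), 3.14 for CAVIN2 (2.20 to 4.57) and 2.47 for EHD2 (2.17 to 2.81). The median over all genes was a log2 ratio of 0.57 for oWAT over muscle and 0.38 for sWAT over muscle. CAVIN4 went the other way.

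The rule called 5 of 7 in oWAT over muscle (11.4% of genes) and 5 of 7 in sWAT over muscle (11.2%). The same 5 were higher in both WAT libraries than in both liver and muscle, which held for 233 of 5520 genes (4.22%). The contrast with muscle depended on scaling: TMM lowered every oWAT ratio to muscle by 0.56 and every sWAT ratio by 0.41 on the log2 scale. With TMM the called count was 1 of 7 in oWAT (CAV1, ratio 2.80), against 5.04% of genes. In sWAT it was 3 of 7 (CAV1 2.73, CAV2 3.09 and CAVIN1 2.56), against 5.87%. DESeq2 size factors gave the same counts, against 5.24% and 6.45% of genes. The ratios of all 5 genes stayed above 1 in both WAT libraries under TMM, between 1.85 (EHD2, sWAT) and 3.09.

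**Figure D3:**
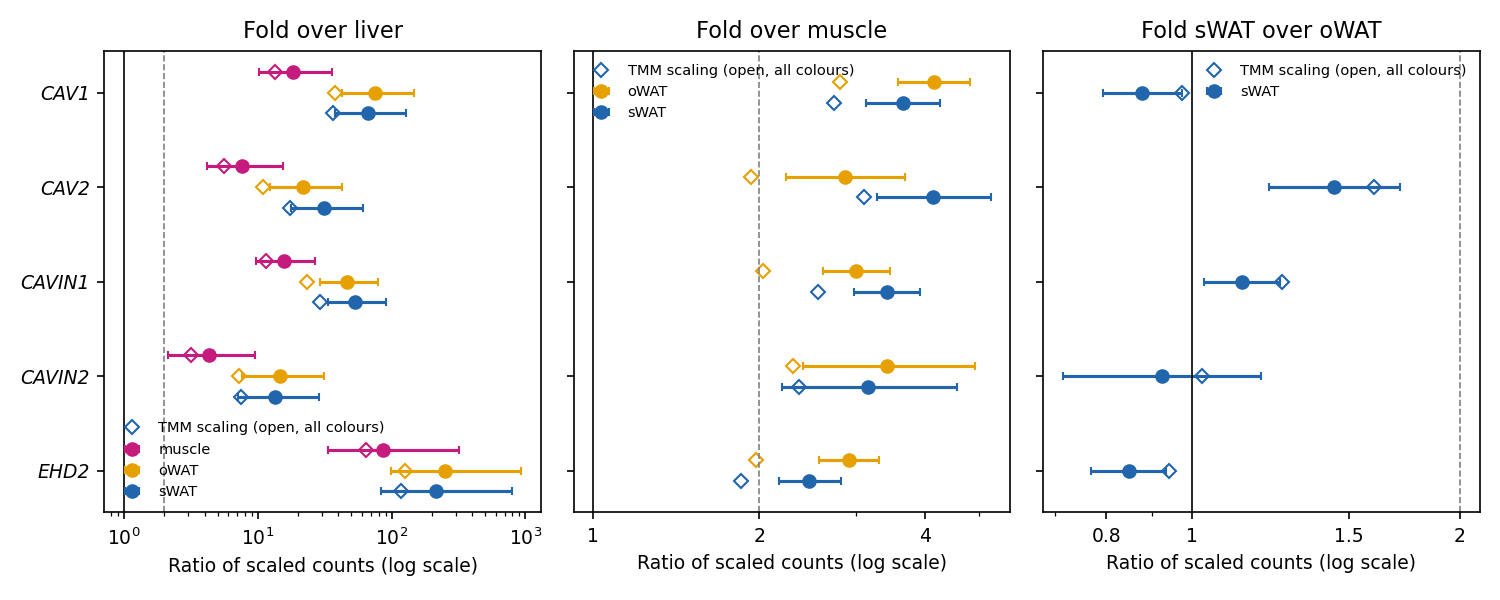
Ratios of scaled counts on a log axis for CAV1, CAV2, CAVIN1, CAVIN2 and EHD2 over liver, over muscle, and for sWAT over oWAT. Filled points are ratios at library totals with exact 95% intervals, open diamonds the same ratios with TMM scaling, and the dashed line marks a ratio of 2. Over liver every filled point and diamond lies right of 2, over muscle the diamonds of CAV2 (oWAT) and EHD2 lie left of it, and between the WAT libraries no interval reaches 2.

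In the reverse direction, 1 of 7 genes, CAVIN4, was higher in muscle than in oWAT (8.30% of genes with at least 10 muscle counts) and than in sWAT (9.23%). CAVIN4 was also the single one of the 7 higher in muscle than in each of the other libraries, which held for 6.71% of genes. Of 3250 genes with a symbol and at least 100 counts, 32 others shared its distribution exactly, with all counts in muscle. They include AMPD1 (muscle AMP deaminase), ASB15, ASB16, CA3 (carbonic anhydrase 3) and CACNA1S, the first by alphabet of this tie.

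Between the WAT libraries none of the 7 was called in either direction, against 1.43% of genes higher in oWAT and 0.767% higher in sWAT. CAV1 was 1.14 times as high in oWAT as in sWAT (1.03 to 1.26) and EHD2 1.18 times (1.07 to 1.30). CAV2 was 1.44 times as high in sWAT as in oWAT (1.22 to 1.71) and CAVIN1 1.14 times (1.03 to 1.26). CAVIN2 was 1.08 times as high in oWAT (0.838 to 1.40), a ratio of 0.976 with TMM and 0.952 with DESeq2 size factors. The CAV1 ratio became 1.03 and 1.002 under these scalings, the EHD2 ratio 1.06 and 1.04, and the CAV2 ratio 1.60 and 1.64. The CAVIN1 ratio was 1.26 and 1.29. CAV2 and CAVIN1 were thus higher in sWAT beyond counting error under these 3 scalings, while the CAV1 and EHD2 differences came within counting error under TMM or DESeq2 scaling and the CAVIN2 ratio changed direction.

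The ratio of 2 genes within a library does not depend on the scaling, and its change between libraries cancels any fixed effect of transcript length. CAV2:CAV1 was 331 to 695 in sWAT (0.476, 0.417 to 0.544), 237 to 818 in oWAT (0.290, 0.250 to 0.335), 92 to 219 in muscle (0.420, 0.326 to 0.538) and 12 to 12 in liver (ratio 1, exact 95% interval 0.411 to 2.43). The neighbouring genes thus stood in different proportion in the WAT libraries. The ratio was 1.64 times as high in sWAT as in oWAT (conditional odds ratio, 1.35 to 2.01). In oWAT it was 0.690 times that of muscle (0.516 to 0.927), and sWAT and muscle did not differ beyond counting error (1.13, 0.854 to 1.51).

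CAVIN1:CAV1 differed in the same direction, at 0.933 in oWAT (0.844 to 1.03) and 1.21 in sWAT (1.09 to 1.34), a change of 1.29 times (1.12 to 1.49). EHD2:CAV1 was highest in muscle, at 1.59 (1.34 to 1.90), against 1.12 in oWAT (1.02 to 1.23) and 1.08 in sWAT (0.973 to 1.20). It was 0.703 times the muscle ratio in oWAT (0.576 to 0.856) and 0.678 times in sWAT (0.553 to 0.830). The WAT libraries did not differ in it beyond counting error (0.965, 0.837 to 1.11).

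CAVIN2:CAVIN1 was 0.152 in muscle (0.108 to 0.211), 0.173 in oWAT (0.143 to 0.208) and 0.141 in sWAT (0.115 to 0.171), with overlapping intervals. In liver it was 0.556 on 10 and 18 counts (0.229 to 1.27), and the 3 other ratios were 0.254 to 0.312 times that of liver. The muscle forms can be set against the general ones in the same way: CAVIN4:CAVIN1 was 115 to 282 in muscle (0.408, 0.325 to 0.508), with an upper bound of 0.00485 in oWAT and 0.00441 in sWAT. CAV3:CAV1 was 9 to 219 in muscle (0.0411, 0.0185 to 0.0795), with upper bounds of 0.00452 in oWAT and 0.00532 in sWAT. In liver the upper bounds were 0.227 for CAVIN4:CAVIN1 and 0.360 for CAV3:CAV1. The CAV3:CAV1 bound of liver lies above the muscle interval, so liver and muscle were not separated in that ratio.

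Changes between libraries were computed for 5 ratios, CAV2:CAV1, CAVIN1:CAV1, EHD2:CAV1, CAVIN2:CAVIN1 and CAVIN3:CAVIN1, over the 6 pairs of libraries. Of these 30 changes, 13 had a 95% interval without 1. With intervals widened for that number (99.8%), 4 remained: CAV2:CAV1 and CAVIN1:CAV1 between sWAT and oWAT, and EHD2:CAV1 between muscle and each WAT library.

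**Figure D4:**
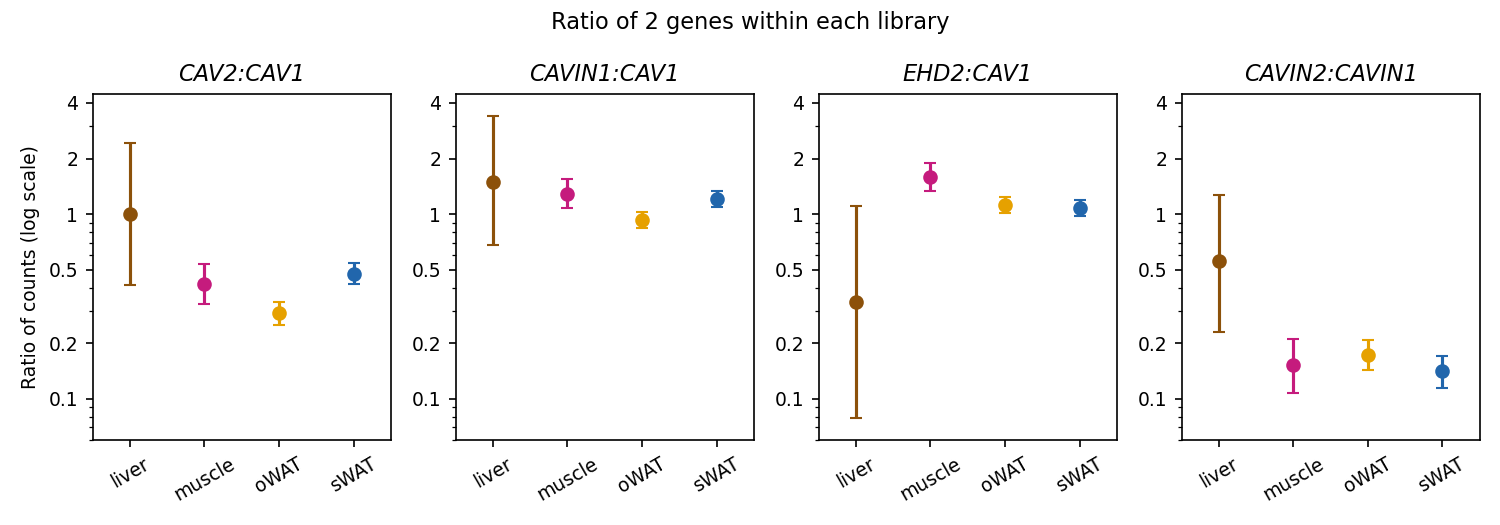
Ratio of the counts of 2 genes within each library, on a log axis, with exact 95% intervals. CAV2:CAV1 is lower in oWAT (0.290) than in sWAT (0.476) and muscle (0.420), EHD2:CAV1 is highest in muscle (1.59), and the liver intervals are wide.

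As a share of the CPM summed over the 4 libraries, CAV1 lay at 41.2% in sWAT, 46.9% in oWAT, 11.3% in muscle and 0.624% in liver. CAV2 lay at 50.8%, 35.2%, 12.3% and 1.62% in the order sWAT, oWAT, muscle and liver, CAVIN1 at 45.6%, 40.1%, 13.4% and 0.859%, CAVIN2 at 40.4%, 43.7%, 12.9% and 3.004%, and EHD2 at 38.6%, 45.6%, 15.7% and 0.180%. The muscle share thus ran from 11.3% to 15.7%.

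Marker sums of cell types rich in caveolae varied over the libraries too. The 12 adipocyte markers had 47.9% of their summed CPM in sWAT, 43.5% in oWAT, 6.52% in muscle and 2.07% in liver, with PLIN1, CIDEC, PPARG and LEP at 0 in liver and CIDEC at 0 in muscle. In the order sWAT, oWAT, muscle and liver, the 13 endothelial markers had 50.97%, 30.01%, 14.9% and 4.11%, with 4879 CPM in sWAT, 2873 in oWAT, 1428 in muscle and 393 in liver, and CLDN5 and EMCN at 0 in liver. The 10 smooth muscle and pericyte markers had 43.9%, 29.3%, 20.9% and 5.94%, and 9 fibroblast markers 63.9%, 19.3%, 16.5% and 0.323%. All 4 sums were lowest in liver and higher in sWAT than in oWAT, as CAV2 and CAVIN1 were and CAV1, CAVIN2 and EHD2 were not. Adipocyte markers were present in muscle, with ADIPOQ at 43 counts and PLIN1 at 26. Of the 1251 summed adipocyte marker counts in muscle, GPD1 had 667 and LPL 252. In liver GPD1 had 338 of the 395 summed counts. Of the 160 summed smooth muscle and pericyte marker counts in liver, MYLK had 115. RGS5 of that list was highest in muscle, at 530 CPM against 348 in oWAT and 260 in sWAT. The part of each cell type in the levels described was not tested.

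**Figure D5:**
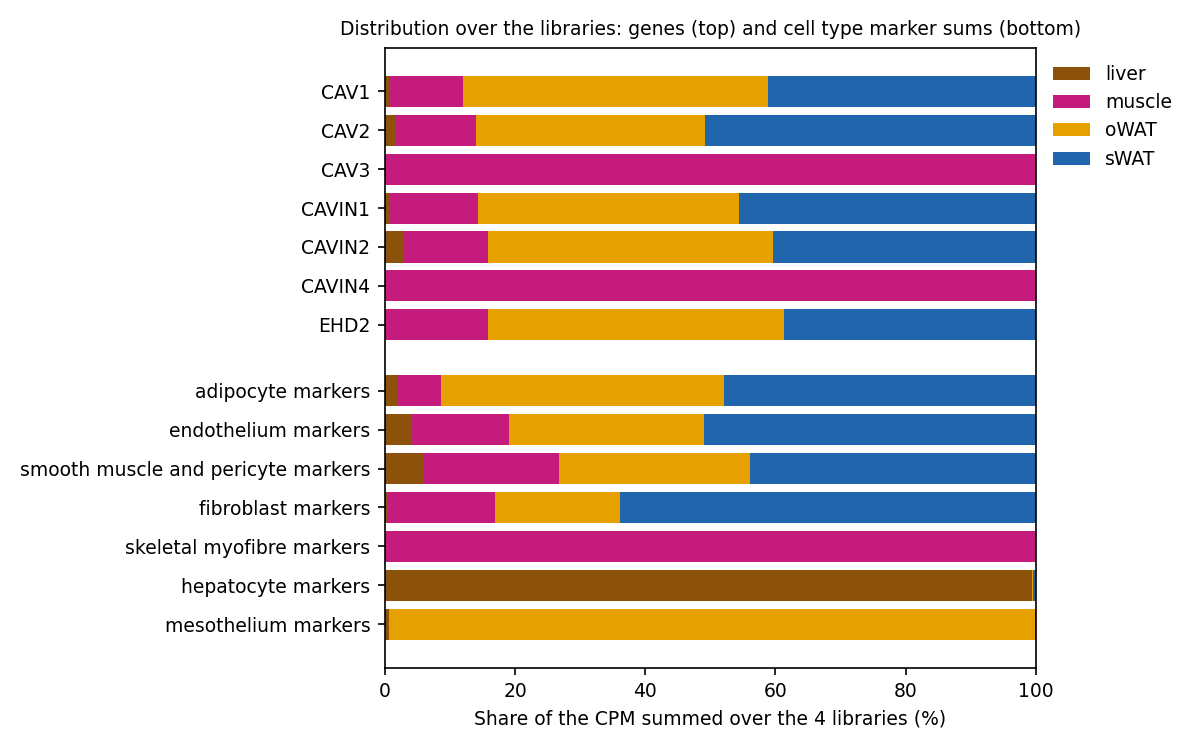
Share of the CPM summed over liver, muscle, oWAT and sWAT that each library holds, in percent, for the 7 genes and for the summed markers of 7 cell types. The 5 general genes hold 11.3% to 15.7% in muscle and at most 3.004% in liver, and the sums of adipocyte, endothelial, smooth muscle and fibroblast markers are likewise smallest in liver.

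The genes with the most similar distribution were found by the summed absolute difference of the 4 shares, over 3250 genes and 4 libraries, where 0 means the same shares. For CAV1 they were ANXA2 (annexin A2, a membrane-binding protein, 0.0289), SPOCK2 (0.0370), SLIT3 (0.0435), ADAM33 (0.0628) and CDH11 (0.0649). For CAV2 they were GNG2 (0.0210), TMSB4X (thymosin beta, an actin-binding peptide, 0.0254), DMRT2 (0.0379), FLNA (0.0411) and CAPG (0.0427). CAVIN1 was closest to VIM, the intermediate filament vimentin (0.00945), whose shares were 45.8% in sWAT, 40.0% in oWAT, 13.0% in muscle and 1.19% in liver. Also among its nearest genes were LPIN1 (0.0348), MCAM (0.0399) and GALNT16 (0.0417).

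For CAVIN2 the closest were TPGS2 (0.0250), NDRG1 (0.0383), CKAP4 (0.0483), ANXA2 (0.0493) and AMOTL2 (0.0524), and for EHD2 they were CCDC80 (0.0346), SERPINH1, a collagen chaperone (0.0425), TPM4 (0.0545), the protease CTSK (0.0562) and NDRG1 (0.0578). The 5 general genes were not each other's nearest. The number of genes closer than the nearest other gene of the 5 was 10 for CAV1 (nearest CAVIN2, 0.0782), 20 for EHD2 (CAV1, 0.0867), 23 for CAVIN2 (CAV1), 44 for CAVIN1 (CAVIN2, 0.115) and 51 for CAV2 (CAVIN1, 0.119). CAV1 and its chromosomal neighbour CAV2 lay 0.233 apart, with 215 genes closer to CAV1. No counting interval was computed for these distances, and genes with as few as 100 counts were compared. The order of genes at similar distances is therefore not settled. With 4 libraries, such likeness is a description of these libraries.

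Other genes that act on caveolae were less uniform. Of 11 accessory genes, 5 were called higher in oWAT than liver (25.8% of all genes tested), 3 in sWAT than liver (24.2%) and 3 in muscle than liver (23.0%), and 0 higher in liver. These shares are over genes with at least 10 counts in the higher library. Of the 11 accessory genes, 8 passed that filter in oWAT, 8 in sWAT and 7 in muscle. With so few genes, the counts are a description only. The median log2 ratio of oWAT over liver was 1.90 over the 10 members with at least 10 counts in either library, against 1.002 over all genes. FLNA (filamin A, which ties caveolae to actin) had 451 counts in sWAT, 345 in oWAT, 139 in muscle and 21 in liver, a ratio of 24.5 for sWAT over liver (15.8 to 39.9). It was the accessory gene still called higher than liver in both WAT libraries with TMM and DESeq2 scaling. CAVIN3, the fourth cavin, had 22, 23, 12 and 3 counts in the order sWAT, oWAT, muscle and liver, which is used for counts given without library names from here on. It was 8.45-fold higher in oWAT than liver (2.55 to 44.0) on 3 liver counts, and lost the call with these scalings.

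PACSIN3, a membrane-bending protein of muscle caveolae, had 9 counts in sWAT, 16 in oWAT, 220 in muscle and 32 in liver. It was higher in muscle than in liver (6.84-fold, 4.71 to 10.2), oWAT (12.4-fold, 7.47 to 22.1) and sWAT (21.3-fold, 11.03 to 47.3), also with TMM and DESeq2 scaling, under which it was called higher in liver than sWAT too. Its relative PACSIN2, the widely expressed form, had 76, 86, 73 and 34 counts and was not called in any comparison. PACSIN1, the neuronal form, was at 0 counts in all 4.

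The other EHD genes were distributed in other ways. EHD1, of endosomal recycling, had 57 counts in sWAT, 102 in oWAT, 74 in muscle and 59 in liver and was not called in any comparison. EHD4 had 63, 61, 17 and 13 counts and was 3.98-fold higher in oWAT than muscle (2.29 to 7.26), which neither TMM nor DESeq2 scaling kept as a call. EHD3 had 18, 7, 7 and 28 counts, 4.02 times as high in liver as in muscle (1.72 to 10.9), which was called with TMM and DESeq2 scaling alone. DNM2, the dynamin that cuts vesicles from the membrane, had 20, 47, 71 and 9 counts and was 7.85-fold higher in muscle than liver (3.91 to 17.9).

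Of 8 receptors, transporters and enzymes known to reside in caveolae, 6 were called higher in oWAT than liver (25.8% of all genes tested) and 5 in sWAT than liver (24.2%). With TMM scaling the counts were 3 (9.95%) and 5 (11.8%). Median log2 ratios over the 8 were 2.73 and 3.19, against 1.002 and 0.79 over all genes. CD36, the fatty acid transporter, had 1979 counts in sWAT, 1703 in oWAT, 228 in muscle and 182 in liver. AOC3, an amine oxidase of the adipocyte surface, had 222, 146, 42 and 3 counts, 84.3-fold higher in sWAT than liver (28.5 to 412), and ATP2B4, a calcium pump of the plasma membrane, had 155, 100, 25 and 18. CD36, AOC3 and ATP2B4 were also called over muscle in oWAT (11.4% of all genes tested) and in sWAT (11.2%). With TMM, CD36 alone was called in oWAT (5.04%) and all 3 in sWAT (5.87%).

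SLC2A4 (GLUT4), the insulin-regulated glucose transporter of muscle and fat, ran in another order, with 43 counts in sWAT, 45 in oWAT, 317 in muscle and 1 in liver, 6.35-fold higher in muscle than oWAT (4.64 to 8.89). EGFR, a growth factor receptor, was the one of the 8 called higher in liver, with 47, 40, 26 and 97 counts. It was 3.75-fold over muscle (2.41 to 6.03), a call made for 17.7% of all genes tested. With TMM and DESeq2 scaling it was called higher in liver than oWAT and sWAT too. PLVAP, which forms the diaphragm of endothelial caveolae, had 49, 43, 24 and 6 counts and was called over liver in both WAT libraries at library totals. NOS3, the endothelial nitric oxide synthase, had 33, 44, 21 and 12 counts. The insulin receptor INSR had 18, 20, 10 and 17 and was not called in any comparison.

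The last group was of genes of the T-tubule and muscle surface membrane, where CAV3 and CAVIN4 act. Of 9, 8 were called higher in muscle than liver (23.0% of all genes tested), 8 than oWAT (8.30%) and 6 than sWAT (9.23%). The median log2 ratios over the 9 were 6.30, 5.06 and 5.01, against 0.56, -0.57 and -0.38 over all genes. With 0 counts set to 3 the medians were 3.69, 3.76 and 2.71. CACNA1S, the voltage sensor of the T-tubule, had 501 counts in muscle and 0 in the other libraries, and TRIM72 (MG53), of membrane repair, 84 and 0. RYR1, the calcium release channel, had 126 in muscle, 1 each in oWAT and sWAT and 0 in liver. JPH2, which ties the T-tubule to the calcium store, had 396 in muscle, 0 in liver, 6 in oWAT and 4 in sWAT. DYSF (dysferlin, of membrane repair) was less restricted, with 27 counts in sWAT, 11 in oWAT, 139 in muscle and 30 in liver, and MTM1 (myotubularin), with 39, 23, 48 and 33, was not called.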

How the data were processed

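Full-length RNA libraries of liver, muscle, oWAT and sWAT, 1 per tissue from RNA of 5 pooled monkeys per the labels, were analysed from whole-number counts per gene that the authors deposited without normalization. Reads were aligned with minimap2 2.24, per the submitters' processing notes; the sources used here do not state the genome build, annotation, filters or gene counter. The files list genes with at least 1 count, and unlisted genes were taken as 0. Counts that name no gene (14.3% to 19.5% of a file) were left out of totals.

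Counts were scaled to library totals (CPM). Ratios have exact 95% Clopper-Pearson intervals, levels exact Poisson intervals, and changes of gene-to-gene ratios exact conditional intervals. All cover counting error only, since each tissue is 1 pooled library. The counts used here carry no molecular identifiers, so duplicate reads were not accounted for. A gene was called higher with at least 10 counts and a lower bound above 2. A floor of 3 counts replaced 0. Genes were named as all 7 genes of the family, list members with the most counts (up to 6 per list) or another direction, and the 5 most similar distributions (1 of them is not reported here); CAVIN3, PACSIN1, NOS3, INSR, ADIPOQ, PLIN1 and the markers at 0 were named after their values were seen. The family and the lists were chosen with earlier results of these data known. Alternatives were edgeR 4.0.16 TMM and DESeq2 1.42.0 size factors (scaling only; R 4.3.3), other totals, minimum counts, confidence and bounds. Python 3.11.15, NumPy 2.4.6, pandas 2.3.3, SciPy 1.17.1 and matplotlib 3.10.9 were used. With no sequence table or genome used here, no sequences or coordinates are printed.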

Additional observations from a re-analysis of the deposited data

How the results depend on the processing

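The counts of the 7 genes called higher over liver, and of CAVIN4 over oWAT and sWAT, stayed within 1.5 times under every alternative run. The count over muscle did not: in oWAT it went from 5 to 1 with TMM, to 1 with DESeq2 size factors and to 0 with a bound of 4. In sWAT it went from 5 to 3, 3 and 0. The share over all genes fell too, in oWAT from 11.4% to 5.04%, 5.24% and 2.73%. In sWAT that share went from 11.2% to 5.87%, 6.45% and 2.40%. Over liver the share with TMM was 16.1% in muscle (23.0% at library totals), 9.95% in oWAT (25.8%) and 11.8% in sWAT (24.2%). The scaling factors shift every ratio of 2 libraries alike, so gene-to-gene ratios within a library do not change. With a bound of 1 in place of 2, 2 genes were higher in oWAT than sWAT (CAV1 and EHD2; 16.1% of genes) and 2 in sWAT than oWAT (CAV2 and CAVIN1; 8.99%). With Euclidean distance 3 of the 5 genes closest to CAV1 were shared. TMM lowered every oWAT-over-liver ratio by 1.01 on the log2 scale. Depth limits CAV3 (9 counts), EHD2 in liver (4) and the other liver counts (10 to 18). No paired analysis was possible because each tissue has 1 library.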
